A study of Mus musculus with 13 samples.

Results

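Megakaryocyte-erythroid progenitors (MEP) were compared with granulocyte-macrophage progenitors (GMP), both sorted from mice and profiled on Illumina mouse bead arrays. The comparison used 4 of the 13 arrays of the series, chosen by their labels and not by any measured value: MEP of A/- mice, MEP of +/+ mice, GMP of A/- mice and GMP of +/+ mice, with 1 array each. A/- is the labels' name for a c-Cbl genotype that they do not spell out further. c-Cbl encodes a ubiquitin ligase that ends signalling by activated receptor tyrosine kinases. The +/+ mice had the normal c-Cbl gene, and both genotypes were on the C57BL/6 background. Both populations were sorted as lineage-negative, c-Kit+ and Sca1-negative cells. MEP were taken as CD34-negative and CD16/32-negative, and GMP as positive for both. The labels do not say how many mice stood behind an array, their sex or their age. For MEP against GMP, the p-values below rest on a fit of 12 arrays, these 4 and 8 of other populations. They thus use a spread between arrays only, and most of those arrays were neither MEP nor GMP.

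MEP and GMP are the 2 branches into which the common myeloid progenitor (CMP) divides. MEP give rise to red cells and platelets under the transcription factors GATA1 and KLF1, with erythropoietin as the main growth signal for the red cell branch. GMP give rise to neutrophils and monocytes under PU.1, the C/EBP factors, GFI1 and IRF8, and are known for high transcription of the proteases and peroxidase stored in primary granules. GATA1 and PU.1 bind and oppose each other, the textbook case of a switch between lineages.

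The start-site regions of 3 erythroid genes called higher in MEP and 3 granule protease genes called lower in MEP are shown as examples. They were picked from the genes named below, and none is among the 15 highest or 15 lowest differences. Each run holds the 250 bases before the RefSeq start in build GRCm38.p6, read 5′ to 3′ on the gene's strand. Klf1 encodes the erythroid activator KLF1 (chr8:84901732-84901981, plus strand), Epor the erythropoietin receptor (chr9:21963577-21963826, minus strand) and Rhag the Rh-associated glycoprotein of the red cell membrane (chr17:40810899-40811148, plus strand). Elane encodes neutrophil elastase (chr10:79886062-79886311, plus strand), Prtn3 proteinase 3 (chr10:79879417-79879666, plus strand) and Ctsg cathepsin G (chr14:56102575-56102824, minus strand). Capitals mark matches on either strand to 4 motifs, AGATAA or TGATAA for GATA factors, CACACCC for KLF1, GAGGAAG for PU.1 and TTNCNNAA for C/EBP.
Klf1: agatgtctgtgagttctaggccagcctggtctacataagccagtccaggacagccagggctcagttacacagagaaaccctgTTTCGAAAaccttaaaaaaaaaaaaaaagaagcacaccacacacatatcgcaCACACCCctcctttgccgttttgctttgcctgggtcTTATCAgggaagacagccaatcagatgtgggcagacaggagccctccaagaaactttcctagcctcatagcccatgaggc
Epor: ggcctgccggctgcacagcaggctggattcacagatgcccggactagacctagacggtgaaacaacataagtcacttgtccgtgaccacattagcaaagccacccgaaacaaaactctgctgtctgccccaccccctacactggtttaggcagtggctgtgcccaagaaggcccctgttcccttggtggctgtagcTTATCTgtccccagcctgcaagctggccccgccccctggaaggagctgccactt
Rhag: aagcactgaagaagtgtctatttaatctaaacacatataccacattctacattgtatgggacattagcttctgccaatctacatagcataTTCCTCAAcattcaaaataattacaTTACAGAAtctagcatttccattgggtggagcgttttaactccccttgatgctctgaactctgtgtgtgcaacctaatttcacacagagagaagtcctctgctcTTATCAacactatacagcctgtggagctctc
Elane: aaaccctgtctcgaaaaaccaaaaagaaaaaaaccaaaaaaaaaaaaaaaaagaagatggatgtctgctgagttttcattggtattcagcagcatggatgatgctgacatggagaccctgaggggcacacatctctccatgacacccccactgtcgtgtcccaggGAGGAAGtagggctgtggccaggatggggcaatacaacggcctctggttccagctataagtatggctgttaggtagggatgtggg
Prtn3: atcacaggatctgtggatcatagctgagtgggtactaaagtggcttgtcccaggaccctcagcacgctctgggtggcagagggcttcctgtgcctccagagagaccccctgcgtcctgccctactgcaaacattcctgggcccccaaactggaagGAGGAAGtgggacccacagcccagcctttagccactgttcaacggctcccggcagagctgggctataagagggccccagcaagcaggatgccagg
Ctsg: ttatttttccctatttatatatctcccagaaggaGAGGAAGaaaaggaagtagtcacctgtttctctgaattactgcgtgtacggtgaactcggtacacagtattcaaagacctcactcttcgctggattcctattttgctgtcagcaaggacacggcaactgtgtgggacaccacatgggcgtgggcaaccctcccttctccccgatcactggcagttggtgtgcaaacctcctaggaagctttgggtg

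Each of the 3 erythroid windows held 1 GATA match and none of the 3 granule windows did. The first base of that match lay 80 bases before the start in Klf1, 54 in Epor and 31 in Rhag. Klf1 also held the CACACCC match, 116 bases before the start, and a C/EBP match at 168. Rhag held C/EBP matches at 160 and 135. Each of the 3 granule windows held 1 GAGGAAG match, at 85 bases in Elane, 95 in Prtn3 and 216 in Ctsg, and no erythroid window did. No match overlapped another. A match is a string of letters and not a measured site. Over the windows of 27025 genes, 17% held a GATA match, 6.85% a CACACCC match, 10.4% a GAGGAAG match and 36.9% a C/EBP match. GATA matches were found for 134 of the 1335 genes with a window called higher in MEP, 10.3% of the 1611 called lower and 9.52% of the 8229 tested. GAGGAAG matches were found for 9.06% of those called higher, 13.8% of those called lower and 10.9% of those tested.

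The mean probe signal before normalization was 744.09 on the A/- MEP array, 1005.6 on the +/+ MEP array, 751.68 on the A/- GMP array and 1149.6 on the +/+ GMP array. Between 30.4% and 33.41% of the 45281 probes were detected, and the number of arrays limits the precision. After normalization the A/- and +/+ arrays of a population correlated at r = 0.969 in MEP and 0.972 in GMP over the tested features, and MEP with GMP at 0.889 in A/- and 0.907 in +/+. Across both labels the A/- MEP array and the +/+ GMP array were least alike, at 0.852, and the +/+ MEP array and the A/- GMP array at 0.921. Of 10 measured MEP markers 10 were detected on both MEP arrays, 10 on the A/- GMP array and 9 on the +/+ GMP array, and their summed signal was 104900, 96810, 31100 and 10280 in that order. Of 12 GMP markers, 5 were detected in A/- MEP and 9 in +/+ MEP, with Cebpa, Irf8 and Csf1r detected on neither MEP array, against 12 on both GMP arrays. Their summed signal was 3289 in A/- MEP, 58790 in +/+ MEP, 182100 in A/- GMP and 211800 in +/+ GMP. Markers of late neutrophils summed to 1937 in A/- MEP, 114700 in +/+ MEP, 3449 in A/- GMP and 67470 in +/+ GMP, and megakaryocyte markers to 3570, 5427, 18910 and 6021 in the same order. Among these 4 arrays, granulocyte markers were thus higher in +/+ than in A/- MEP. Megakaryocyte and erythroid markers were higher in A/- than in +/+ GMP. On the arrays of the other populations GMP markers summed to 57610 to 165800, so A/- MEP was the lowest of all arrays. Late neutrophil markers ranged from 673.5 to 184900 there, MEP markers from 9086 to 36760 and megakaryocyte markers from 1410 to 44820. The part of these markers in the differences below was not tested, and counts without single arrays are given beside lists of these cell types. In RNA from sorted cells, fewer cells of a type and less RNA per cell cannot be told apart.

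The genes behind the sort followed the gates. Cd34 was at 6.26 in A/- MEP and 6.99 in +/+ MEP, against 9.82 in A/- GMP and 9.67 in +/+ GMP, on the scale of normalized log2 signal used for all levels here. Its MEP minus GMP difference was -3.12 (SE 0.28, adjusted p = 4.89e-05). Each such difference sets the mean of 2 MEP arrays against the mean of 2 GMP arrays in limma, with genotype as a covariate. Its SE and p-value use the spread left over in the fit of all 12 arrays. P-values were adjusted by Benjamini-Hochberg over 12807 features, and a feature is called at an adjusted p under 0.05. The Fc receptor genes behind the CD16/32 gate were also called lower, Fcgr3 by -5.08 (SE 0.70) and Fcgr2b by -4.45 (SE 0.43). Fcgr3 was at 4.43 in A/- MEP and 8.60 in +/+ MEP, against 11.01 in A/- GMP and 12.19 in +/+ GMP, and was detected on the +/+ MEP array alone of the MEP arrays. Kit, required by both gates, was at 12.83 and 12.65 in A/- and +/+ MEP, against 12.83 and 12.60 in A/- and +/+ GMP (difference 0.03, SE 0.14, adjusted p = 0.913). Since these genes or their products set the gates, they check the labels and are no finding. Cbl itself was not detected and was not tested, so it checks no genotype.

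A large share of the transcriptome separated the populations. Of the 12807 tested features 1939 were called higher in MEP (15.1%) and 2324 lower (18.1%), together 4263 (33.3%), and 5476 had an unadjusted p under 0.05. Changes past 4-fold were more often losses in MEP, with 292 called features at least 4-fold higher and 806 at least 4-fold lower, and 45 and 114 past 16-fold. The median of all tested features was 0.05, and scaling each array to its 75th percentile moved it to 0.30. With that scaling 3266 features were called higher and 1953 lower, so that 62.6% of the calls were on the higher side, against 45.5% with quantile normalization, and the values below are relative to the median. Both MEP arrays lay above both GMP arrays for 4273 features (33.4%) and below both for 3860 (30.1%). Across the tested features, which are not independent replicates, the MEP minus GMP differences within A/- and within +/+ had a Pearson r of 0.831 and a Spearman rho of 0.757. Of 3176 features at least 2-fold apart within A/-, 2094 (65.9%) were at least 2-fold apart in the same direction within +/+, which is 71.2% of the 2941 features that passed there.

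**Figure D1:**
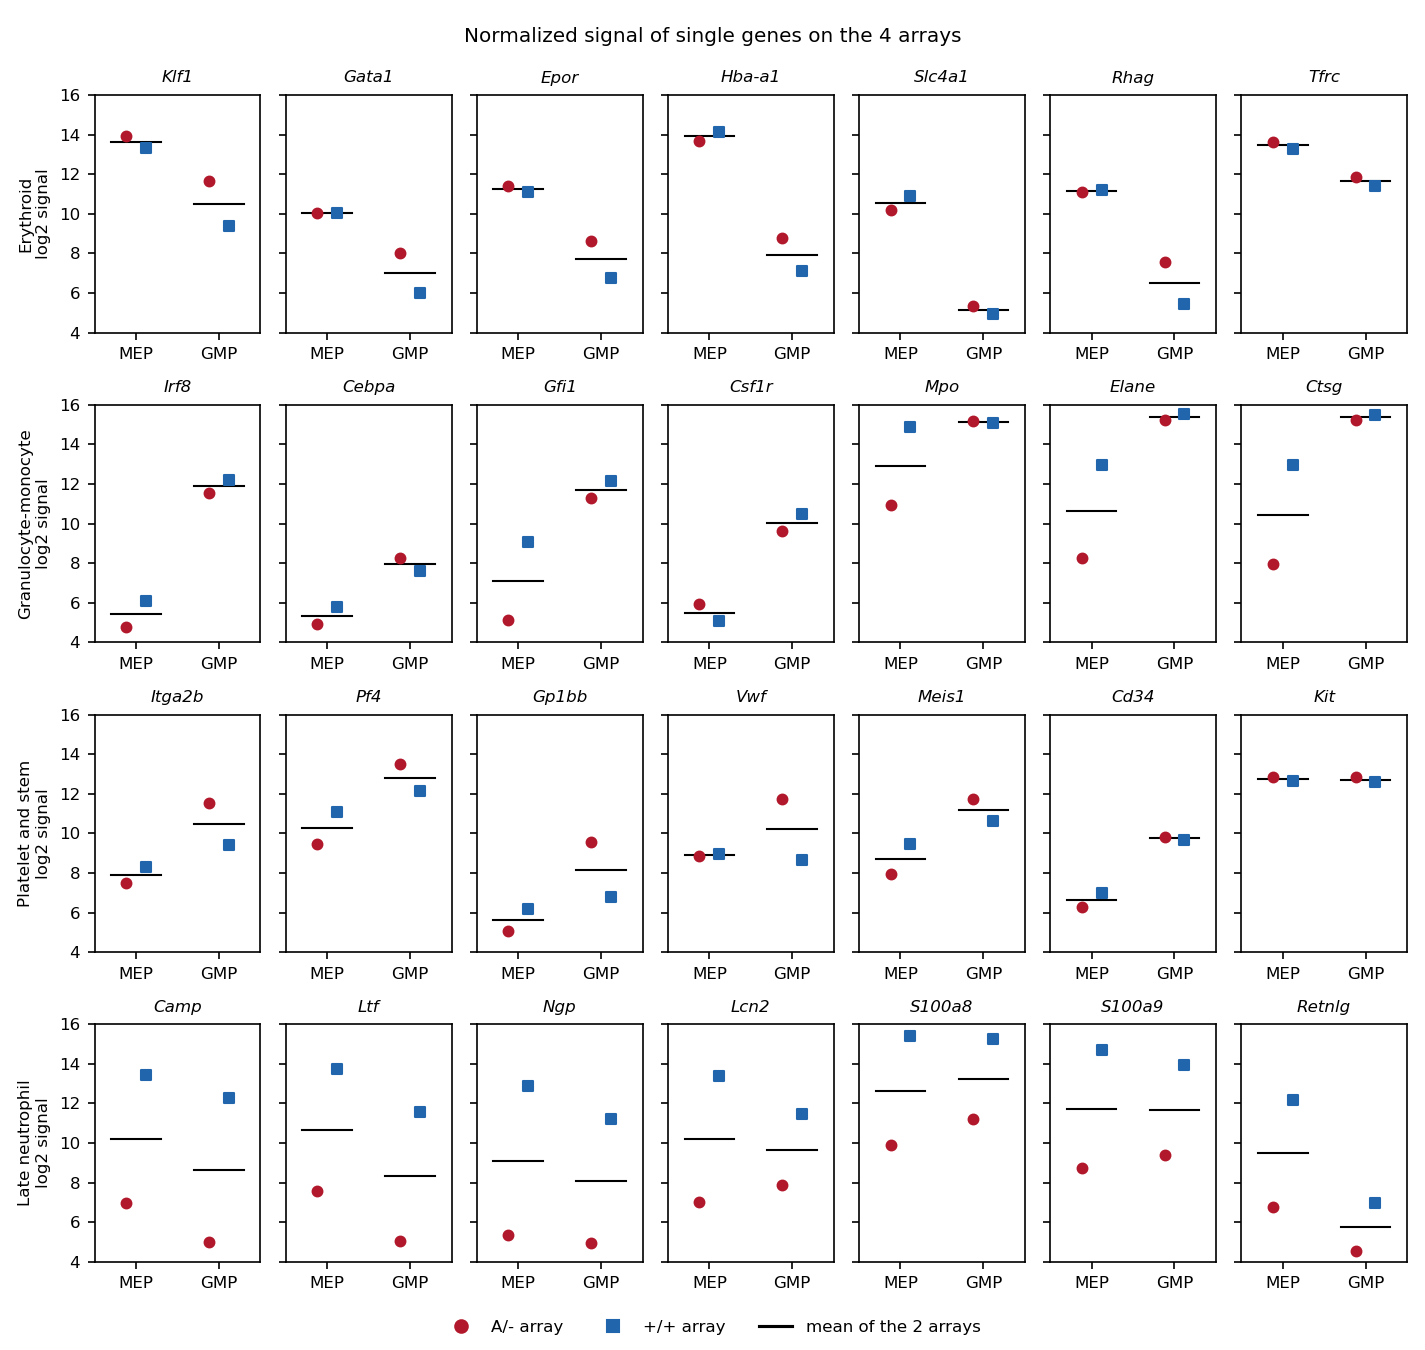
Normalized log2 signal of 28 genes on the 4 arrays, with MEP left of GMP in each panel, red circles for A/- arrays, blue squares for +/+ arrays and a black bar for the mean of the 2 arrays. Erythroid genes such as Slc4a1 (10.22 and 10.92 in MEP, against 5.33 and 4.93 in GMP) did not overlap between populations, while late neutrophil genes such as Camp split by genotype.

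**Figure D2:**
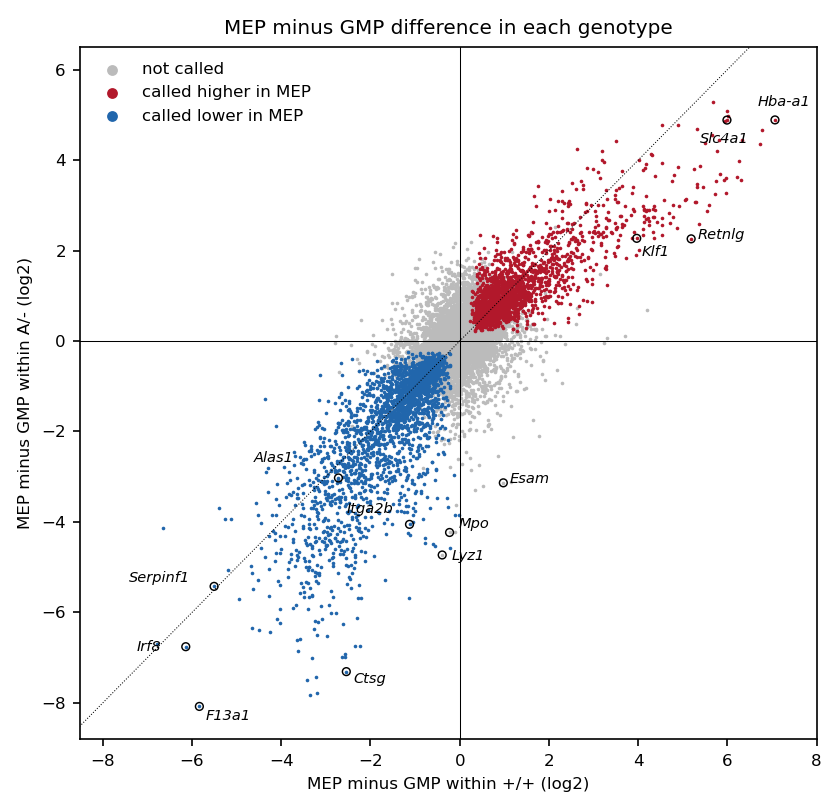
MEP minus GMP difference of each of 12807 tested features within +/+ (x axis, log2) and within A/- (y axis, log2), red where called higher in MEP and blue where called lower. The dotted line marks equal differences, and named genes are circled; Ctsg, Mpo, Lyz1 and Esam lie far below the line.

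The 15 features with a gene symbol and the highest called differences lay between 4.94 and 5.98 on the log2 scale. They were globin genes, red cell membrane genes and several genes with less known roles. Hba-a1, an alpha globin gene, was at 13.67 in A/- MEP and 14.16 in +/+ MEP, against 8.78 in A/- GMP and 7.09 in +/+ GMP (difference 5.98, SE 0.89, adjusted p = 0.000765). The adult beta globin genes Hbb-bt and Hbb-bs differed by 5.72 and 5.39. Globin genes have near-identical copies, whose probes can bind each other's RNA, so the split between them is uncertain. Trim10, a RING finger gene of erythroid cells, was at 11.02 and 10.88 in A/- and +/+ MEP and was detected on neither GMP array, so that it was at least 31.6-fold higher in MEP (adjusted p = 7.57e-05). For such a bound, the brighter group's mean is divided by the lowest detected signal on each array of the other, or the probe's own signal where that is higher. By the same bound Plpp1, which encodes a lipid phosphate phosphatase, was at least 25.9-fold higher, Slc4a1, the band 3 anion exchanger, at least 24.3-fold, Pdia2, a protein disulfide isomerase gene, at least 23.3-fold and Dmtn, the actin-bundling dematin of the red cell skeleton, at least 16.6-fold. Tlcd4 differed by 5.54, Sh3tc2 by 5.49, the aldehyde dehydrogenase gene Aldh1a7 by 5.13, the LIM-domain gene Crip2 by 5.12, the acyl-CoA synthetase gene Acsl6 by 5.10, the ABC transporter gene Abcg4 by 4.98 and the progestin receptor family gene Paqr9 by 4.94. For all 15 genes both MEP arrays, at 9.97 to 14.22, were above both GMP arrays, at 4.61 to 8.89. For all 15 the difference was larger within +/+ than within A/-. Of all features called higher, it was larger within A/- for 42.7%.

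The 15 lowest called differences lay between -6.96 and -5.16. They included monocyte, granulocyte and basophil genes, beside channel, filament and other genes not particular to those cells. F13a1, a subunit of the clotting factor that crosslinks fibrin and a gene of monocytes and platelets, had the lowest fitted value. It was at 4.60 in A/- MEP, where it was not detected, and 7.58 in +/+ MEP, against 12.68 in A/- GMP and 13.42 in +/+ GMP (difference -6.96, SE 0.57, adjusted p = 3.20e-05). With the A/- MEP value raised to the lowest detected signal of that array the difference was -6.08. Such partly measured genes are many, with 318 of the features called lower detected on 1 of 2 MEP arrays and 134 of those called higher on 1 of 2 GMP arrays. They include 8 of the 15 lowest and 7 of the 15 highest. Of the genes named here 46 and 12 were such, and raising values in this way moved their differences by 0.02 to 0.96 towards 0, so the fitted sizes and their order are uncertain. Irf8, the factor that directs monocyte and dendritic cell fate, was at 4.78 and 6.08 in A/- and +/+ MEP, where it was not detected, against 11.54 and 12.22 in A/- and +/+ GMP. It was at least 45.7-fold lower in MEP (adjusted p = 6.14e-06). Ly86, which encodes the MD-1 partner of a Toll-like receptor homologue, was at least 42.0-fold lower, the ion channel gene Gria3 at least 16.2-fold and the basophil protease gene Prss34 at least 16.1-fold. Serpinf1, the serpin PEDF, hardly varied within a population, with 6.70 and 6.67 in A/- and +/+ MEP, against 12.13 and 12.18 in A/- and +/+ GMP (difference -5.46, SE 0.12). The other 9 were Ly6c1, a monocyte surface antigen (-5.59), Emb (-5.50), Ms4a3, a membrane protein gene of GMP (-5.49), the hexokinase gene Hk3 (-5.46), the calcium channel gene Cacna1d (-5.44), Unc93b1, which carries nucleic acid sensors to endosomes (-5.35), the protease inhibitor gene Slpi (-5.33), the intermediate filament gene Vim (-5.24) and the annexin gene Anxa3 (-5.16). For 12 of the 15 the loss was larger within A/- than within +/+, as it was for 60.9% of all features called lower.

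Among 21 tested erythroid transcription factor genes, 11 were called higher in MEP and 4 lower (background 15.1% and 18.1%), with a median of 0.68 against 0.05 for all features. Without the A/- GMP array 9 were called higher and 4 lower (median 0.82). The core activators led. Klf1 was at 13.92 in A/- MEP and 13.34 in +/+ MEP, against 11.65 in A/- GMP and 9.38 in +/+ GMP (difference 3.12, SE 0.97, adjusted p = 0.0333). Gata1, which opens the erythroid program, was at 10.05 and 10.02 in A/- and +/+ MEP, against 8.04 and 5.99 in A/- and +/+ GMP (3.02, SE 0.61). Gfi1b, a repressor that follows GATA1, differed by 2.92 and Tal1, the partner of GATA1 in large complexes, by 1.87. For each of these 4 genes the A/- GMP array was above the +/+ GMP array, and both lay below both MEP arrays. The E2F genes E2f4 (1.47) and E2f2 (1.46), which carry the cell divisions of red cell precursors, the fetal globin silencers Bcl11a (1.22) and Zbtb7a (1.04) and the KLF1 target Klf3 (1.56) were also called higher, with Foxo3 (0.84) and the bridging factor Ldb1 (0.60). The genes called lower in MEP were Gata2 (-1.33), the stem cell and mast cell factor that GATA1 replaces, Hes6 (-1.46), the TAL1 relative Lyl1 (-0.79) and Nfe2 (-0.74), a factor of platelet formation. Lmo2 (0.11), Cbfa2t3 (-0.16) and Myb (-0.41) were not called.

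Erythropoietin signalling genes moved both ways, with 4 of 14 called higher and 4 lower. That is 28.6% each way, against 15.1% higher and 18.1% lower of all features. The receptor gene Epor was at 11.38 in A/- MEP and 11.12 in +/+ MEP, against 8.64 in A/- GMP and 6.76 in +/+ GMP (difference 3.55, SE 0.59, adjusted p = 0.00147). Jak2, the kinase on that receptor, differed by 0.61 and Stat5a, the factor it activates, by 0.64. Erfe, the erythroid hormone that lowers hepcidin, was detected on both MEP arrays alone and was at least 1.59-fold higher. The feedback inhibitor Cish (-0.90), the phosphatase gene Ptpn6 (-0.98), the cyclin gene Ccnd2 (-1.19) and Id1 (at least 1.83-fold lower) were called lower, and Socs2, Pim1 and Bcl2l1 were not called. Without 1 array at a time 2 or 3 of the 14 genes were called higher and 2 to 4 lower.

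Most heme and globin genes were higher in MEP. Of 20 tested genes 15 were called higher in MEP and 2 lower (median 2.06), as many as without the A/- GMP array (median 2.29). Uros, the fourth enzyme of heme synthesis, was at 11.35 and 11.32 in A/- and +/+ MEP, against 9.08 and 8.72 in A/- and +/+ GMP (difference 2.43, SE 0.22, adjusted p = 5.29e-05). The later enzymes were higher too, with Urod at 1.47, Cpox at 3.06, Ppox at 1.73 and Fech, which inserts iron, at 2.18. Alad, the second enzyme, differed by 1.81, and Slc25a38, the mitochondrial glycine carrier that feeds the first step, by 1.94. The first step split between its 2 isoforms. Alas2, the erythroid isoform, was at 7.31 and 8.09 in A/- and +/+ MEP and was detected on neither GMP array, being at least 3.33-fold higher in MEP. Alas1, the general isoform, was at 11.59 in A/- MEP and 12.44 in +/+ MEP, against 14.62 in A/- GMP and 15.16 in +/+ GMP (-2.87, SE 0.16, adjusted p = 7.93e-06). Hmox2, a heme oxygenase gene, was the other gene called lower (-0.96), while Blvrb (3.23), which reduces biliverdin and flavins, Tspo2 (3.47) and the heme-sensing kinase gene Eif2ak1 (0.78) were called higher. Globin signal was not limited to MEP in the sort. Hba-a1 was at 10.76 in A/- MPP and 13.72 in +/+ MPP, the multipotent progenitors of the same series, and at 7.65 and 8.26 in A/- and +/+ CMP. The part of red cell RNA in these levels was not tested.

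Iron genes followed, with 9 of 14 called higher and 1 lower (median 1.24), and the same counts without the A/- GMP array (median 1.16). The transferrin receptor gene Tfrc was at 13.63 and 13.30 in A/- and +/+ MEP, against 11.88 and 11.42 in A/- and +/+ GMP (difference 1.81, SE 0.26, adjusted p = 0.000616). Its relative Tfr2 differed by 2.34, the endosomal ferrireductase gene Steap3 by 2.41, the importer gene Slc11a2 by 1.94 and the exporter gene Slc40a1 by 2.38. The cluster assembly genes Glrx5 (1.42) and Nfs1 (1.06) and the iron sensor gene Aco1 (1.44) were higher as well, and Fth1, a ferritin subunit, by 0.45. Ncoa4, which delivers ferritin for breakdown, was the gene called lower (-1.36).

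Red cell membrane and carbonic anhydrase genes gave the highest median of the lists, 3.41, with 18 of 22 called higher and 0 lower. Besides Slc4a1, Trim10 and Dmtn, the erythroid spectrin gene Sptb (4.79), the ankyrin gene Ank1 (4.21), the adducin gene Add2 (4.40) and the blood group genes Ermap (4.17), Kel (3.38) and Rhd (at least 3.94-fold) were called. Rhag was at 11.09 in A/- MEP and 11.22 in +/+ MEP, against 7.55 in A/- GMP and 5.47 in +/+ GMP (difference 4.64, SE 0.71, adjusted p = 0.000835). Car2, a carbonic anhydrase gene, differed by 3.67 and the water channel gene Aqp1 by 2.47. Car1, a second carbonic anhydrase gene, was at 15.36 and 15.38 in A/- and +/+ MEP, against 13.87 and 12.22 in A/- and +/+ GMP, and was not called (2.32, SE 0.98, adjusted p = 0.102). The median was 2.62 within A/- and 4.13 within +/+, and 20 of 22 genes were called without the A/- GMP array, against 13 without the +/+ GMP array.

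The megakaryocyte genes did not move with the erythroid genes. Of 33 tested platelet and megakaryocyte genes 1 was called higher in MEP and 18 lower (median -1.34), and of 8 megakaryocyte transcription factor genes 1 was called higher and 6 lower (median -1.36). Itga2b, the integrin CD41 of megakaryocytes, was at 7.48 in A/- MEP and 8.29 in +/+ MEP, against 11.53 in A/- GMP and 9.42 in +/+ GMP (difference -2.59, SE 0.51, adjusted p = 0.00369). Pf4, the platelet chemokine, was at 9.47 and 11.08 in A/- and +/+ MEP, against 13.48 and 12.12 in A/- and +/+ GMP (-2.52, SE 0.57). Both MEP arrays were below both GMP arrays for each of these 2 genes. Gp1bb, part of the von Willebrand factor receptor, was detected on neither MEP array and was at least 3.47-fold lower. Treml1 (-2.57), the pleckstrin gene Plek (-2.67), Cd9 (-2.42), the thrombin receptor gene F2rl3 (-2.42), the ATP receptor gene P2rx1 (-2.39), Muc13 (-2.0) and Selp (at least 1.36-fold), the P-selectin gene, were called lower as well. Gp5 (0.70), Gp9 (-0.38) and Vwf (-1.30) were not called, and Pdzk1ip1 was the gene called higher (1.42). Among the factors, Mef2c (-2.90), Fli1 (-2.80), Meis1 (-2.48), Ets1 (-1.60), Runx1 (-1.12) and Srf (-0.72) were called lower and Nfib (1.01, detected on 1 of 2 MEP arrays) higher. The platelet list's median was -2.45 within A/- and -0.51 within +/+. Without the A/- MEP array 0 genes were called higher and 10 lower (median -0.88). Without the A/- GMP array, whose megakaryocyte markers were high, 3 genes were called higher and 11 lower (median -0.86), and without the +/+ GMP array 0 and 23 (median -2.06). Of the factors 0 were called higher and 5 lower without the A/- GMP array.

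Granulocyte and monocyte transcription factors were lower in MEP, with 14 of 19 called lower and 0 higher (median -2.06). Spi1, which encodes PU.1, was at 5.88 in A/- MEP, where it was not detected, and 6.65 in +/+ MEP, against 8.98 in A/- GMP and 8.99 in +/+ GMP (difference -2.72, SE 0.26, adjusted p = 6.78e-05). Cebpa, needed for the step into the granulocyte branch, was detected on neither MEP array and was at least 2.98-fold lower. Gfi1, which holds the neutrophil fate against the monocyte fate, was at 5.15 in A/- MEP and 9.05 in +/+ MEP, against 11.29 in A/- GMP and 12.14 in +/+ GMP (-4.62, SE 0.72). Cebpe, the factor of secondary granule genes, showed the same gap between the MEP arrays, with 4.71 in A/- and 9.45 in +/+, against 11.46 in A/- GMP and 11.79 in +/+ GMP (-4.55, SE 0.93). The monocyte factors Klf4 (at least 3.35-fold lower), Irf5 (at least 3.62-fold) and Tfec (at least 3.46-fold) and Cebpb (-1.92), Stat3 (-2.06), Irf1 (-2.64), Etv6 (-1.51), Bcl6 (-1.45) and Zeb2 (-1.42) were called as well. Cebpd (-0.06) and Egr1 (-0.48) were not called. Without the +/+ MEP array the count was 14 lower, and without the A/- MEP array 13.

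Primary granule genes had the lowest median of the lists with at least 6 tested genes, -3.70, with 13 of 17 called lower and 0 higher. Elane was at 8.29 in A/- MEP and 12.97 in +/+ MEP, against 15.21 in A/- GMP and 15.53 in +/+ GMP (difference -4.74, SE 0.85, adjusted p = 0.00215). Ctsg was at 7.94 in A/- MEP and 12.93 in +/+ MEP, against 15.25 in A/- GMP and 15.47 in +/+ GMP (-4.93, SE 0.98). Prtn3 was at 8.59 in A/- MEP and 13.09 in +/+ MEP, against 15.33 on each GMP array (-4.49, SE 0.88). The 3 protease genes were thus below GMP on both MEP arrays, and much closer to GMP on the +/+ array. Mpo, myeloperoxidase, was at 10.95 in A/- MEP and 14.86 in +/+ MEP, against 15.18 in A/- GMP and 15.09 in +/+ GMP, and was not called (-2.23, SE 0.82, adjusted p = 0.0648). The lysozyme genes Lyz1 (-2.56) and Lyz2 (-2.17), which probes may not tell apart, and Fcnb (-1.81) were not called either. Cst7 (-4.69), Nkg7 (-4.71), Rab44 (-4.82), Gstm1 (-4.14), Plac8 (-3.70), Serpinb1a (-3.39), the protease activator gene Ctsc (-2.79) and the granule proteoglycan gene Srgn (-2.0) were called lower. Without the +/+ MEP array all 17 genes were called lower, with a median of -5.01, and without the A/- MEP array 13 were (median -2.64).

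Most late neutrophil granule genes were not called between the populations and differed between the arrays of each. Camp, a cathelicidin, was at 6.97 in A/- MEP and 13.46 in +/+ MEP, against 5.0 in A/- GMP and 12.29 in +/+ GMP. Ltf, lactoferrin, was at 7.57 and 13.73 in A/- and +/+ MEP, against 5.04 and 11.59 in A/- and +/+ GMP. In both populations these genes were high on the +/+ array and low on the A/- array, so MEP and GMP overlapped. S100a8 behaved alike, with 9.89 and 15.40 in A/- and +/+ MEP, against 11.22 and 15.23 in A/- and +/+ GMP. Of the 24 tested genes 1 was called higher and 4 lower (median 0.54), with 3 higher after 75th percentile scaling and 4 with only the 4 MEP and GMP arrays. The shares of 4.17% higher and 16.7% lower were not above the background of 15.1% and 18.1%. Retnlg was the one called higher (3.72, SE 1.0, adjusted p = 0.0183). Its levels were 6.80 in A/- MEP and 12.16 in +/+ MEP, against 4.54 in A/- GMP and 6.97 in +/+ GMP. The A/- MEP array was thus below the +/+ GMP array. The 4 called lower were Trem3 (-4.81), the haptoglobin gene Hp (-4.78), the peptidoglycan receptor gene Pglyrp1 (-3.40) and Anxa1 (-2.78). Pglyrp1 and Anxa1 also overlapped, with 11.10 and 8.85 in +/+ MEP against 10.74 and 8.70 in A/- GMP. For Trem3 and Hp both MEP arrays were below both GMP arrays. The list depends on single arrays, with 0 higher and 4 lower without the +/+ MEP array (median -1.43) and 4 higher and 2 lower without the A/- MEP array (median 2.05). Without the A/- GMP array 0 were higher and 2 lower (median -0.10), and without the +/+ GMP array 0 and 2 (median 1.04). With the +/+ MEP and A/- GMP arrays both left out, 0 were called higher and 10 lower (median -2.84), and Camp (-4.11) and S100a9 (-4.03) were called.

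**Figure D3:**
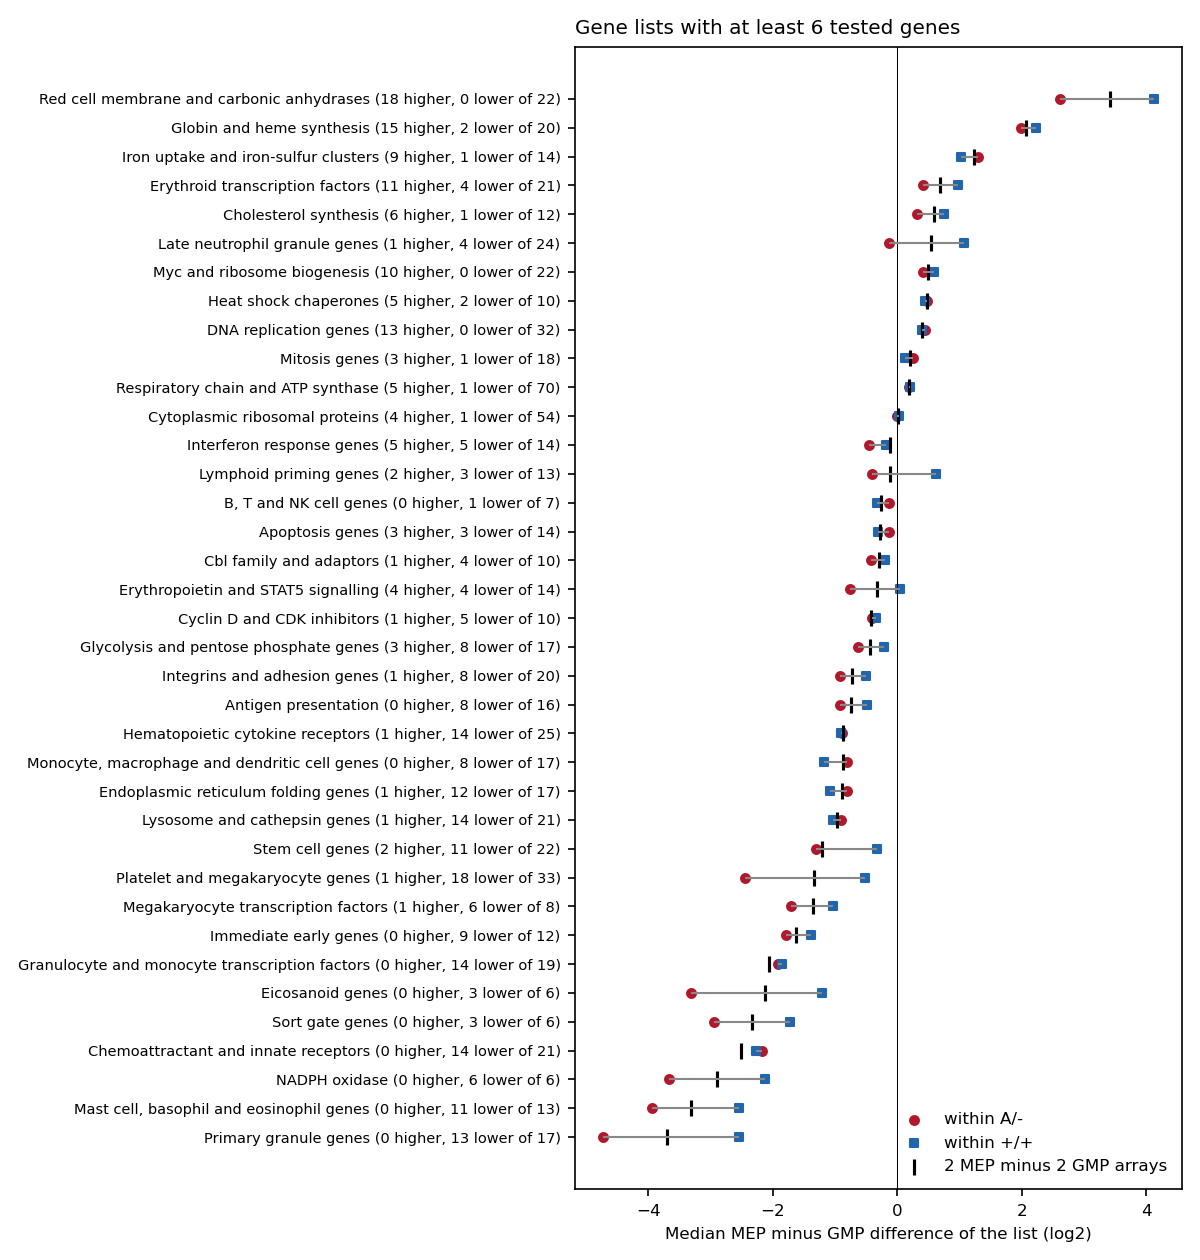
Median MEP minus GMP difference (x axis, log2) of each gene list with at least 6 tested genes, as a red circle within A/-, a blue square within +/+ and a black tick for 2 MEP minus 2 GMP arrays. Each label gives the genes called higher and lower in MEP of those tested; red cell membrane genes stand at the top (3.41) and primary granule genes at the bottom (-3.70).

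Genes of the oxidative burst were called lower without exception, 6 of 6 (median -2.90). Ncf4, a cytosolic oxidase subunit, was at 5.85 in A/- MEP and 9.5 in +/+ MEP, against 12.10 in A/- GMP and 12.11 in +/+ GMP (difference -4.43, SE 0.81, adjusted p = 0.00237). Hvcn1, the proton channel that balances the burst, differed by -3.87, Ncf1 by -3.48, the GTPase gene Rac2 by -2.31, the membrane subunit gene Cyba by -1.58 and Rac1 by -1.03. Without the A/- GMP array 5 of the 6 were called, likewise 5 without the A/- MEP array, and 6 without the +/+ MEP array.

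Receptors that sense microbes and chemoattractants were lower in MEP for 14 of 21 tested genes and higher for 0 (median -2.51). The median was -2.37 without the +/+ MEP array and -2.14 without the A/- MEP array. It was -2.72 without the A/- GMP array and -2.16 without the +/+ GMP array. The signalling adaptor genes Tyrobp (-4.75) and Fcer1g (-4.46), which pair with many myeloid receptors, led, followed by Sirpa (-4.27), Ltb4r1, a leukotriene B4 receptor (-3.98), and Ffar2, which senses short-chain fatty acids (-3.14). For Ffar2 the populations overlapped, with 4.68 and 8.87 in A/- and +/+ MEP, against 8.70 and 11.13 in A/- and +/+ GMP. Tlr2 was at 4.68 and 6.58 in A/- and +/+ MEP, against 8.93 and 9.49 in A/- and +/+ GMP (-3.58, SE 0.42, adjusted p = 0.000212). Tlr4 was at least 2.45-fold lower, its coreceptor gene Cd14 at least 1.96-fold, the beta-glucan receptor gene Clec7a at least 5.18-fold and the chemokine receptor genes Cx3cr1 and Ccr2 at least 4.69-fold and at least 1.47-fold. Cxcr4, which holds progenitors in the marrow, differed by -1.44. Fpr2 was at 4.83 in A/- MEP and 10.66 in +/+ MEP, against 4.77 in A/- GMP and 7.37 in +/+ GMP, and was not called.

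Receptors for cytokines separated the branches by growth factor. Of 25 tested genes Epor was called higher and 14 were called lower (median -0.86). Csf1r, the receptor of the macrophage growth factor M-CSF, was at 5.92 and 5.06 in A/- and +/+ MEP and not detected there, against 9.61 and 10.46 in A/- and +/+ GMP, and was at least 12.7-fold lower (adjusted p = 0.000106). Csf3r, the G-CSF receptor, was at 6.69 and 8.43 in A/- and +/+ MEP, against 10.15 and 10.86 in A/- and +/+ GMP (difference -2.94, SE 0.39). Csf2ra, the GM-CSF receptor, differed by -2.26. Il3ra was at least 7.46-fold lower, Il6ra at least 7.04-fold, its signalling partner Il6st at least 3.04-fold and Tnfrsf1a at least 3.88-fold. The TGF-beta receptor genes Tgfbr1 (-0.93) and Tgfbr2 (-0.86) and the interferon receptor genes Ifnar2 (-0.90) and Ifngr1 (-0.58) were called lower too, while Csf2rb (-0.34) and Kit were not called.

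Genes of other myeloid cells were also GMP genes. Of 13 tested mast cell, basophil and eosinophil genes 11 were called lower in MEP and 0 higher (median -3.31). The median was -4.30 without the +/+ MEP array and -2.36 without the A/- MEP array. It was -3.35 without the A/- GMP array and -3.28 without the +/+ GMP array. Cpa3, mast cell carboxypeptidase, was at 6.65 and 7.33 in A/- and +/+ MEP, against 10.69 and 11.78 in A/- and +/+ GMP (difference -4.24, SE 0.21, adjusted p = 6.14e-06). Prg2, the major basic protein of eosinophils, was at 8.38 and 11.75 in A/- and +/+ MEP, against 13.75 and 14.28 in A/- and +/+ GMP (-3.95). Hdc, which makes histamine, differed by -4.69, the eosinophil peroxidase gene Epx by -3.31 and the IgE receptor gene Fcer1a by -2.68, and Mcpt8 was at least 9.94-fold lower. Of 17 monocyte, macrophage and dendritic cell genes 8 were called lower (median -0.88), among them Mpeg1 (-5.06), Vcam1 (-2.80) and Adgre1 (at least 3.38-fold), while the macrophage genes C1qa, C1qb, C1qc and Mrc1 were detected on none of the 4 arrays. Of 7 tested B, T and NK cell genes Cd79b was called lower (-3.11) and none higher, a share of 14.3% lower against 18.1% of all features.

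Stem cell genes were called lower in MEP more often than higher. Among 22 tested stem cell genes 11 were called lower and 2 higher (median -1.2), and without the A/- GMP array 9 and 2 (median -0.74). Cd34 is counted among those called lower, but its product set the gates and it is no finding. Besides Cd34, Meis1 and Gata2 the genes called lower were Sox4 (-2.24), Hoxa5 (-1.44), Prom1 (-1.44), Slamf1 (-1.34), the angiopoietin receptor gene Tek (-1.55), and by bounds Angpt1 (at least 2.32-fold), Hoxb4 (at least 2.65-fold) and Rbpms (at least 3.80-fold). Mllt3, which keeps stem cell genes active and is also known from erythroid and megakaryocyte fate, went the other way, with 9.90 and 10.25 in A/- and +/+ MEP, against 7.17 and 6.98 in A/- and +/+ GMP (difference 3.0, SE 0.24, adjusted p = 2.98e-05). Msi2 was called higher by 0.84. Hlf and Mecom were detected on none of the 4 arrays and Procr on 1 of each population. Among 13 lymphoid priming genes Notch1 (-3.64), Satb1 (-3.42) and Mef2c were called lower, Ikzf1 (0.53) and Vpreb3 (at least 1.76-fold) higher. These shares, 23.1% lower and 15.4% higher, were near the background of 18.1% and 15.1%. The list's median of -0.12 was 0.24 without the A/- MEP array, 0.32 without the A/- GMP array and 0.25 with 75th percentile scaling.

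Genes of DNA replication were called higher in MEP for 13 of 32 tested and lower for 0 (median 0.41, 40.6% called higher against 15.1% of all). Ccne1, the cyclin that starts S phase, had the largest difference, with 10.83 and 10.79 in A/- and +/+ MEP, against 8.32 and 7.76 in A/- and +/+ GMP (2.77, SE 0.25, adjusted p = 5.22e-05). Ccne2 differed by 1.15, the origin licensing genes Cdc6 by 1.26, Orc1 by 1.22 and Orc6 by 0.80, the ribonucleotide reductase genes Rrm2 by 1.05 and Rrm1 by 0.70, and Pcna, the polymerase clamp, by 0.75. The helicase genes Mcm2, Mcm3, Mcm4, Mcm5 and Mcm6 were not called. Leaving out 1 array at a time, between 5 and 7 of the 32 were called higher and 0 lower, and with 75th percentile scaling 25 and 0 (median 0.79). Of 18 mitosis genes 3 were called higher, a share near the background, and 1 lower (median 0.20), the centromere histone gene Cenpa by 0.94 and Kif23 by -0.54. With 75th percentile scaling 9 were called higher and 0 lower (median 0.54), and 1 or 2 were higher without 1 array at a time. Among cyclin D and CDK inhibitor genes Ccnd3 was called higher (0.47) and Ccnd1 (-1.1), Ccnd2 (-1.19), Cdk6 (-0.90) and the inhibitors Cdkn2d (-1.64) and Cdkn1a (-1.91) lower (5 lower in all, 2 or 3 without 1 array at a time).

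Ribosome building genes were called higher for 10 of 22 tested and lower for 0 (median 0.49), and for 18 with 75th percentile scaling (median 0.86). Among them were Cad (0.94), which starts pyrimidine synthesis, Ubtf (0.87), which activates RNA polymerase I, its subunit genes Polr1c (0.63), Polr1b (0.62) and Polr1a (0.53), and Odc1 (0.68), which makes polyamines. Myc itself was at 8.75 and 8.62 in A/- and +/+ MEP, against 8.97 and 8.27 in A/- and +/+ GMP (0.07, SE 0.28, adjusted p = 0.888). Without the +/+ MEP array 1 of these 22 genes was called, without the +/+ GMP array 2, without the A/- MEP array 5 and without the A/- GMP array 8. Of 54 cytoplasmic ribosomal protein genes 4 were called higher and 1 lower (median 0.005), and of 70 respiratory chain genes 5 and 1 (median 0.18). Both shares of higher calls, 7.41% and 7.14%, were below the background of 15.1%. For the respiratory chain this depended on the fit, since 16 of 70 were called higher with only the 4 MEP and GMP arrays, where 1905 of all features were, and 17 with 75th percentile scaling, where 3266 were.

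Protein folding genes moved both ways. Genes of the endoplasmic reticulum were called lower in MEP for 12 of 17 tested and higher for 1 (median -0.89). Pdia2, a disulfide isomerase gene outside this list, was among the 15 highest differences given above. Sdf2l1 differed by -2.08, the calcium-binding chaperone gene Calr by -1.80, Xbp1, which encodes a factor of secretory capacity, by -1.61, and the disulfide isomerase genes Pdia4 by -1.51 and P4hb by -1.35. Hsp90b1 was at 12.66 and 12.77 in A/- and +/+ MEP, against 13.47 and 14.08 in A/- and +/+ GMP (-1.06, SE 0.16, adjusted p = 0.000818). Ddit3, a stress factor, was the gene called higher (1.29). Of 10 cytosolic and mitochondrial chaperone genes 5 were called higher, Hsph1 (0.98), Hspe1 (0.86), Hsp90aa1 (0.63), Dnajb1 (0.51) and Hspd1 (0.49), and the inducible Hspa1a (-2.31) and Hspa1b (-1.33), near-identical copies, were called lower. Lysosomal genes were called lower for 14 of 21 and higher for 1 (median -0.97), led by the cathepsin gene Ctsh (-5.13), the progranulin gene Grn (-2.67), Cd63 (-2.66), the hexosaminidase gene Hexa (-2.63) and the mannosidase gene Man2b1 (-2.29), with Tpp1 higher (0.75). Without 1 array at a time 2 to 4 of the 10 chaperone genes were called higher and 1 or 2 lower.

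Glycolytic genes differed by isoform. Of 17 tested genes 3 were called higher in MEP and 8 lower (median -0.43). The share called higher, 17.6%, was near the background of 15.1%, and the share called lower was 47.1% against 18.1%. Without the +/+ GMP array 1 was called higher (median -0.67) and without the +/+ MEP array 2, and with 75th percentile scaling the median was -0.04. Hk1, the hexokinase of red cells, was at 10.20 and 9.89 in A/- and +/+ MEP, against 9.31 and 8.30 in A/- and +/+ GMP (difference 1.24, SE 0.28), whereas Hk3 was at 4.82 and 9.36 in A/- and +/+ MEP, against 12.31 and 12.79 in A/- and +/+ GMP. Of the phosphofructokinase genes Pfkm, the muscle form, was called higher by 1.88, Pfkp, the platelet form, was called lower by -2.48 and Pfkl, the liver form, was not called (-0.26). Of the glucose transporter genes Slc2a3 was called higher (0.94) and Slc2a1 lower (-3.12, SE 0.21, adjusted p = 1.56e-05). Pkm (-4.82), Pgam1 (-3.10), Pgk1 (-1.11), Gapdh (-0.72) and Aldoa (-0.69) were lower. Cholesterol synthesis genes were called higher for 6 of 12 and lower for 1 (median 0.59), with Lss at 1.27, Dhcr7 at 1.23, Idi1 at 1.07, Mvk at 0.93, Sqle at 0.79 and Nsdhl at 0.75, and Fdps at -0.51. Of 6 tested eicosanoid genes Alox5ap (-3.86), Ltb4r1 and Tbxas1 (-3.33) were called lower. Without 1 array at a time between 2 and 5 cholesterol genes were called higher.

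Of 20 integrin and adhesion genes 8 were called lower and 1 higher (median -0.73), with Pecam1 (-3.62), Selplg (-2.27), Icam1 (-2.02) and Itgal (at least 5.29-fold) lower and Itga5 (0.92) higher. Of 16 antigen presentation genes 8 were called lower (median -0.74), among them the peptide loading genes H2-DMb1 (-2.98) and H2-DMa (-2.24) and the immunoproteasome genes Psmb8 (-2.46), Psmb9 (-1.59) and Psmb10 (-0.98), and 5 without either GMP array or without the A/- MEP array. Interferon response genes split, with 5 of 14 called higher, led by Irf7 (at least 3.04-fold), Rsad2 (1.78) and Isg15 (1.71), and 5 lower, led by Gbp2 (-1.45), Ifitm1 (-1.27) and Ly6e (-1.25). The shares were 35.7% each way, against a background of 15.1% higher and 18.1% lower. Without the +/+ GMP array 2 interferon genes were called higher and without the A/- MEP array 3. Immediate early genes were called lower for 9 of 12 and higher for 0 (median -1.63). Fos was at 8.65 and 9.88 in A/- and +/+ MEP, against 11.61 and 12.42 in A/- and +/+ GMP (difference -2.75, SE 0.38, adjusted p = 0.000468), and Fosb differed by -2.14, Zfp36 by -1.96, Klf6 by -1.92 and Jun by -1.71.

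Of 14 apoptosis genes 3 were called higher and 3 lower, 21.4% each way, near the background of 15.1% higher and 18.1% lower. The largest differences concerned the BCL2 family. Bcl2, the survival gene, was at 5.0 in A/- MEP, where it was not detected, and 6.97 in +/+ MEP, against 10.12 in A/- GMP and 10.13 in +/+ GMP (difference -4.14, SE 0.48, adjusted p = 0.000185), and differed by -3.46 with the A/- MEP value at the lowest detected signal. Bcl2l11, which encodes its antagonist BIM, was at 10.19 and 9.68 in A/- and +/+ MEP, against 8.30 and 7.51 in A/- and +/+ GMP (2.03, SE 0.22). Mcl1, which myeloid progenitors need to survive, was not called (-0.11). Without the +/+ GMP array 1 of the 14 was called higher. Among 10 genes of the Cbl family and its adaptors Vav1 (-2.35), Syk (at least 1.24-fold lower), Sh3kbp1 (-0.82) and Inpp5d (-0.60) were called lower, and Cblb (0.27) was not called. Grb2 was called (0.79) but detected on none of the 4 arrays, so no fold is given. Of 4 tested sex-linked genes 0 were called. Eif2s3y, on the Y chromosome, was at 9.04 and 10.71 in A/- and +/+ MEP, against 9.19 and 10.37 in A/- and +/+ GMP.

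The genotype term asked whether MEP and GMP lay further apart in 1 genotype than in the other. The test set the A/- minus +/+ difference in MEP against that in GMP, with the spread taken from the other 4 populations. It called 77 of 12807 features (0.601%), all of them on the lower side, and 912 had an unadjusted p under 0.05. For 67 of the 77, MEP lay below GMP in both genotypes and further below it in A/-. For 9, MEP lay below GMP in A/- and above it in +/+, and for 1 it lay less far above GMP in A/-. Since MEP and GMP had 1 array for each genotype, the p-values leave out how far 2 arrays of 1 kind would differ. Of the 77, 62 were also called lower and 1 higher in MEP over both genotypes. For 54 the A/- MEP array was at least 2-fold below the +/+ MEP array without a 2-fold gain in A/- GMP, for 8 the A/- GMP array was at least 2-fold above the +/+ GMP array alone, for 14 both held and for 1 neither.

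The first kind held granule and myeloid genes. Ctsg, with the levels given above, had A/- minus +/+ differences of -4.99 in MEP and -0.22 in GMP, an interaction of -4.77 (SE 0.41, adjusted p = 0.00362). The interactions of Ms4a3 (-4.59), Prtn3 (-4.50), Ly6c1 (-4.46), Hp (-4.41), Elane (-4.37), Trem3 (-4.34), Lyz1 (-4.34) and Lyz2 (-4.13) were of like size. Mpo, not called between the populations, was called here, with differences of -3.91 in MEP and 0.10 in GMP (interaction -4.0, SE 0.31, adjusted p = 0.00283). In all, 9 of 17 primary granule genes were called, and Camp, S100a8 and S100a9 were not. Those 3 were lower in A/- in both populations. Platelet and stem cell genes were among the second kind. Vwf was at 8.85 and 8.93 in A/- and +/+ MEP, against 11.71 and 8.68 in A/- and +/+ GMP (interaction -3.11, SE 0.35, adjusted p = 0.0128). Esam, an adhesion molecule of stem cells and megakaryocytes, had differences of -0.87 in MEP and 3.24 in GMP (-4.11), and Dntt, the lymphoid enzyme that adds bases to receptor genes, -0.45 and 3.17 (-3.62). F2rl2, a thrombin receptor gene, fell in the group where both held, with -1.59 in MEP and 2.76 in GMP (-4.35, SE 0.57, adjusted p = 0.0214). Of 33 platelet and megakaryocyte genes 8 were called. The one gene higher in MEP over both genotypes was Tgm2, a transglutaminase gene, at 11.09 and 11.05 in A/- and +/+ MEP, against 8.60 and 6.18 in A/- and +/+ GMP (-2.38). Klf1, at 0.58 in MEP and 2.28 in GMP, was not called. Without the mean-variance trend of limma 0 features were called (1063 at an unadjusted p under 0.05), and with the authors' processed values 21.

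**Figure D4:**
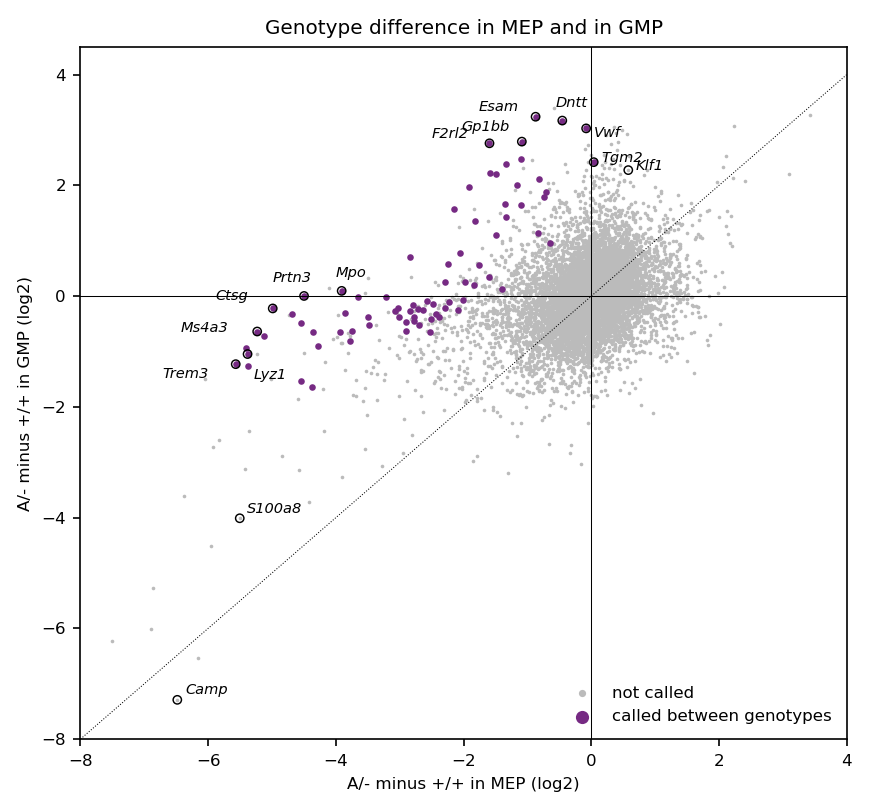
A/- minus +/+ difference of each tested feature in MEP (x axis, log2) and in GMP (y axis, log2), with the 77 features called between genotypes in purple and named genes circled. The called features lie above the dotted line of equal differences, either to the left, as Ctsg (-4.99 and -0.22), or at the top, as Vwf (-0.08 and 3.03), and Camp lies near the line.

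Among features called between MEP and GMP, the CMP, which both populations leave, mostly lay nearer GMP. For 1847 of the 1939 features called higher in MEP (95.3%) and 2153 of the 2324 called lower (92.6%) the mean of the 2 CMP arrays was nearer the GMP mean than the MEP mean. The share over all tested features was not computed, so these shares describe the called features alone. Irf8 was at 12.11 and 12.40 in A/- and +/+ CMP, and Slc4a1 at 4.94 and 5.03. Among the 12 arrays of the 6 populations, which also include long-term and short-term stem cells and MPP, both MEP arrays were the highest for 2642 tested features (20.6%) and the lowest for 2417 (18.9%). Both GMP arrays were the highest for 295 (2.30%) and the lowest for 223 (1.74%). Of the features called higher in MEP 1621 (83.6%) had both MEP arrays on top of all 12, and of those called lower 1844 (79.3%) had both at the bottom. Tfrc was such a gene, with the other 8 arrays outside MEP and GMP between 10.27 and 11.76. For Itga2b both MEP arrays were the lowest, and the short-term stem cells were the highest of the 6 populations, at 12.85 in A/- and 12.51 in +/+. Comparisons of MEP and of GMP with CMP share the CMP arrays. The MEP minus CMP difference of Klf1 was 2.22 and the GMP minus CMP difference -0.90, those of Elane were -4.0 and 0.74, and those of Alas1 -2.06 and 0.81.

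**Figure D5:**
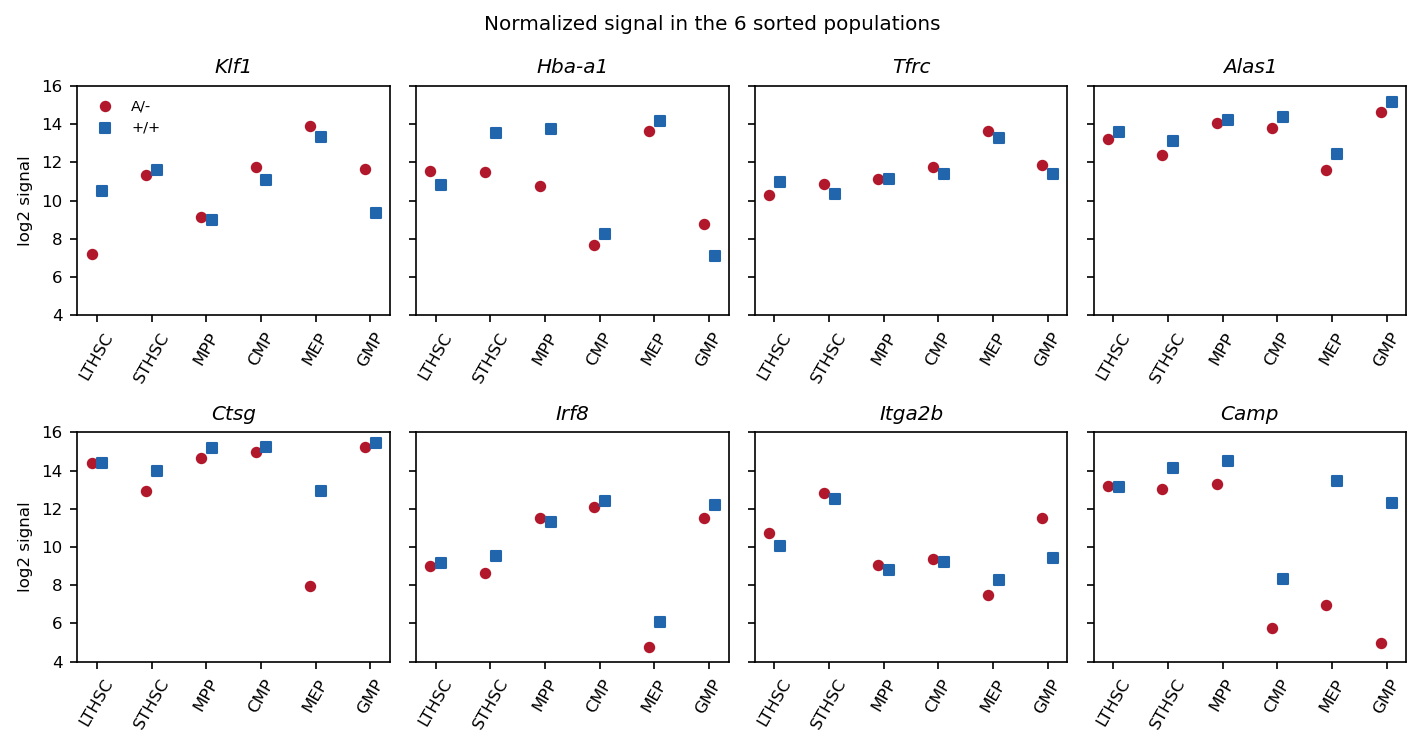
Normalized log2 signal of 8 genes in the 6 sorted populations, with red circles for A/- and blue squares for +/+ arrays. Both MEP arrays stand above the other populations for Klf1 and Tfrc and below them for Irf8, while Camp is high in the +/+ arrays of MEP and GMP and low in their A/- arrays.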

How the data were processed

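Sorted mouse progenitor populations were profiled on 13 Illumina bead arrays. The deposited table holds probe intensity on a linear scale, not normalized between arrays, and a detection p-value per probe and array, per the file headers. No source used here names the scanner software. A second deposited table holds intensities that the authors had brought to a common distribution, separately for the 3 long-term stem cell arrays and the other 10. RNA was column-purified and amplified to biotin-labelled cRNA, per the labels' protocols.

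All 13 arrays were normalized together with neqc of limma 3.58.1 in R 4.3.3 (background from the detection p-values, offset 16, quantiles). Of 45281 probes, 34885 had 1 symbol in the platform annotation, 18 had several and 10378 were not listed. Names were checked against RefSeq by Entrez number (34807 matched). The probe with the highest mean was kept for each gene. Features with a detection p under 0.01 on at least 2 arrays were tested, 12807 in all, of which 2773 carry no symbol and are not named.

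The MEP minus GMP contrast came from limma with a mean-variance trend on 12 arrays of 6 populations, with genotype as covariate and 5 residual degrees of freedom, so the spread is that of the genotype difference between populations. The genotype comparison had 3 residual degrees of freedom, from the other 4 populations. P-values were adjusted by Benjamini-Hochberg over all tested features. Named genes were the 15 highest and 15 lowest called differences, the 10 largest between genotypes, and in each of 39 lists the called members with the largest differences and members of defining role. The members and lists were chosen with earlier results of these data known. Alternatives covered the arrays in the fit, the normalization, the offset, the filter, the probe choice, the trend and each array left out. Start-site sequences came from RefSeq (GRCm38.p6).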

Additional observations from a re-analysis of the deposited data

Results flagged for a closer look

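The MEP minus GMP difference was lower in A/- than in +/+ mice, by the limma test of the difference itself with Benjamini-Hochberg adjustment, for 34 of the genes named above. All 34 rest on 1 array for each genotype and population. The values below are the difference in A/- minus that in +/+ on the log2 scale.

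Among GMP marker, granule and lysozyme genes it was -4.77 for Ctsg, -4.59 for Ms4a3, -4.50 for Prtn3, -4.37 for Elane, -4.34 for Lyz1, -4.13 for Lyz2 and -4.0 for Mpo. The late neutrophil genes Hp and Trem3 had -4.41 and -4.34.

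Among other genes lower in MEP it was -4.46 for Ly6c1, -4.07 for Hk3, -3.70 for Anxa3, -3.64 for Ncf4, -3.56 for Tyrobp, -3.38 for Ltb4r1, -3.21 for Vim, -3.12 for Fcer1g, -3.11 for Pkm, -2.95 for Nkg7, -2.81 for Alox5ap, -2.65 for Plac8, -2.17 for Sirpa and -2.13 for Cd79b. GMP markers summed to 3289 on the A/- MEP array and 58790 on the +/+ MEP array, and the part of these markers in the values was not tested.

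Among platelet, stem cell and other genes it was -4.35 for F2rl2, -4.11 for Esam, -3.88 for Gp1bb, -3.62 for Dntt, -3.57 for Treml1, -3.11 for Vwf, -2.93 for Itga2b, -2.83 for Tbxas1, -2.61 for Meis1 and -1.61 for Gata2. Tgm2, higher in MEP than in GMP, had -2.38. Megakaryocyte markers summed to 18910 on the A/- GMP array and 6021 on the +/+ GMP array, and their part was not tested either.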

How the results depend on the processing

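Called features numbered between 3777 and 5921 under the alternatives that kept all 4 arrays, against 4263 of 12807 tested. The lowest number came without the filter, from 29453 tested features, and the highest with every probe kept, from 18652, so these counts have unlike totals. With 75th percentile scaling 3266 were called higher in MEP, and 11 of the 4263 had the opposite sign, as none had in the other settings. Leaving out 1 array at a time gave 2706 to 3276 called features, 1005 to 1371 of them higher and 1701 to 1983 lower, with the fewest without the A/- MEP array. Such a fit leaves 1 array in a population, which is assumed to vary like the others. Leaving out the +/+ MEP and A/- GMP arrays together, chosen after seeing the data, gave 2754, of which 1038 were higher and 2554 were among the 4263. There Camp (-4.11) and S100a9 (-4.03) turned negative and were called, and the cause was not tested. The 320 genes named gave 5916 values under the alternatives, of which 5508 kept direction and call, 370 lost the call, 36 gained it and 2 reversed. The 77 features called between genotypes became 122 without the LTHSC arrays (76 of the 77 among them), 21 with the authors' processed values, and 0 without the trend, where 1063 had an unadjusted p under 0.05. This comparison could not be fitted with an MEP or GMP array left out. No paired analysis was possible because the labels carry no replicate numbers that link arrays, and genotype was already a covariate. With 2 arrays a group, small differences and probes near background are the least certain.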
